A study of Mus musculus with 3 samples.

Results

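The regions described here are the 321 stretches of mouse autosomal DNA that were enriched with an antibody against Jmjd2a and that no Jmjd2c peak touched. They were selected on the measured peak positions alone. A Jmjd2a peak on chromosomes 1 to 19 was kept when it shared no base pair with any peak of the Jmjd2c list. These members were 61.3% of the 524 autosomal Jmjd2a peaks (95% Wilson interval 57 to 65.3) and 28.2% of all 1139 Jmjd2a peaks (25.6 to 30.9). The other 203 autosomal Jmjd2a peaks had a Jmjd2c peak on them and are called shared below. In the reverse direction 410 of 625 autosomal Jmjd2c peaks, 65.6% (61.8 to 69.2), had no Jmjd2a peak on them. Both percentages follow from the rule and are a description of the 2 lists.

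The cells were splenic B220+ B cells, selected on magnetic beads, from C57BL/6 mice with the Tg(IghelMD4)4Ccg transgene. All 3 libraries of the study carry this genotype and this stimulation with anti-CD40, IL-21 and HEL, and they differ in the ChIP antibody: anti-Jmjd2a, anti-Jmjd2c or normal rabbit IgG. The transgene gives nearly every B cell one receptor, which recognises hen egg lysozyme, so the cells are a model of a single antigen specificity and not of a natural repertoire. No unstimulated group was analysed here, and the labels give neither the age nor the number of the mice nor whether they were pooled. Each antibody had 1 library, so no difference has a replicate check, no test was made, and every interval covers counting error only. No IgG peak list was analysed here. Peaks give no expression of marker genes, so the labelled cell type was not checked. Positions are in mm9 and are counted from 1.

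Jmjd2a (also Kdm4a) and Jmjd2c (Kdm4c) are JmjC-domain enzymes that take methyl groups off lysines of histone H3, among them lysines whose methylation marks silent chromatin. Both carry the same kinds of catalytic and chromatin-reading domains, and their reader domains bind methylated histone tails such as those at active promoters. B cells that receive CD40 and IL-21 signals, which T follicular helper cells provide, can enter the germinal centre reaction, in which chromatin regulators take part in switching gene programmes. ChIP-seq peaks mark where fragments pulled down by an antibody pile up. A peak listed for one antibody and not for the other can be a place where only the first enriched DNA enough to reach the list. No mm9 genome or gene annotation was used here, so the regions are given by position, without sequence or gene.

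Most members scored close to the lowest value the list admits. The score is the authors' own number for each peak, not scaled between libraries, and the whole Jmjd2a list starts at 50.01. Members ran from 50.01 to 206.55, with a median of 60.68 (95% interval of the median 59.46 to 62.18) and quartiles of 53.70 and 72.87. Under 55 lay 99 members (30.8%, 26 to 36.1), and under 80 lay 262 (81.6%, 77 to 85.5). At or above 100 lay 24 (7.48%, 5.08 to 10.9) and at or above 150 only 3. Shared peaks of the same library ran from 50.13 to 2154.81 with a median of 103.50, and 105 of the 203 reached 100 (51.7%, 44.9 to 58.5). The Jmjd2c-only peaks had nearly the same profile as the members within their own list. Their median was 59.30, and 19 of 410 reached 100 (4.63%, 2.99 to 7.12).

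**Figure D1:**
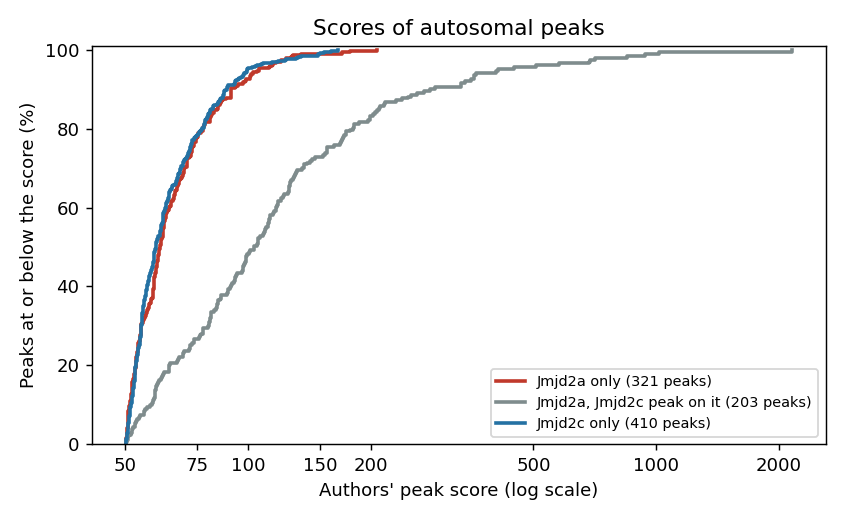
Cumulative percentage of autosomal peaks (vertical axis) at or below each score of the authors (horizontal axis, log scale) for the 321 Jmjd2a-only peaks, the 203 Jmjd2a peaks with a Jmjd2c peak on them and the 410 Jmjd2c-only peaks. The red and blue curves run close together and end at 206.55 and 165.58, and the grey curve runs on to 2154.81.

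Read by score, the part of the Jmjd2a list without a Jmjd2c peak shrank stepwise above a score of 80. Between 50 and 55 it was 99 of 114 peaks, 86.8% (79.4 to 91.9). It was 75.8% from 55 to 60, 81.7% from 60 to 70 and 72.5% from 70 to 80, with intervals that overlap one another. From 80 to 100 it was 35 of 71 peaks, 49.3% (38 to 60.7). Between 100 and 150 the share was 29.6% (20.2 to 41), and from 150 upwards 3 of 58 peaks, 5.17% (1.77 to 14.1). The Jmjd2c list showed the same order in its upper bands, with 53.9% from 80 to 100, 28.6% from 100 to 150 and 5.66% from 150 upwards. Restricted to autosomal Jmjd2a peaks at or above their median score, the rule left 104 members, 39.7% of those peaks. The depth of neither library is known. A weak Jmjd2c signal that stayed under the list's lowest score therefore cannot be told apart from no signal.

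The 10 members with the highest scores lay on 9 different chromosomes, and 8 of them stood alone, with no other peak of either list within 10 kb. The first was on chromosome 12 from 4219657 to 4221796 and scored 206.55. At 2140 bp it was also the widest member. Its nearest Jmjd2c peak lay 252 kb away and scored 62.33. The next, on chromosome 5 from 145175246 to 145175792, scored 177.93 over 547 bp, and the nearest Jmjd2c peak was 2.63 Mb away.

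The third highest member was of another kind. It lay on chromosome 9 from 115059459 to 115059649, scored 170.00, and ended 253 bp short of a Jmjd2c peak that scored 196.69. That Jmjd2c peak overlapped a neighbouring Jmjd2a peak, so this member sat at the flank of a region found in both lists. The tenth, on chromosome 16 from 3233162 to 3234376, scored 120.27 over 1215 bp and was also beside other peaks, 675 bp from a Jmjd2c peak of score 80.92.

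The 6 members ranked between them were far from any Jmjd2c peak. A member on chromosome 11 from 31822625 to 31822849 scored 134.86 and was the nearest of these to the other library, at 67 kb. On chromosome 17 a member from 7797260 to 7797409 scored 128.69, with 239 kb to the nearest Jmjd2c peak. The remaining 4 had no Jmjd2c peak within 1 Mb. The member on chromosome 15 from 35093839 to 35093969 scored 128.35 in only 131 bp. It had the longest gap of all members to the other library, 14.6 Mb. The member on chromosome 6 from 100345642 to 100346052 scored 127.64 and was 411 bp wide. A member on chromosome 9 from 48025610 to 48025946 scored 123.79, and one on chromosome 14 from 95071739 to 95071884 scored 120.41 in 146 bp. High scores thus occurred in members of very different width, from 131 to 2140 bp among these 10.

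Members were mostly short. Their median width was 186 bp (178 to 193), with quartiles of 150 and 235 bp and a range of 61 to 2140 bp, and together they covered 67.3 kb. Shared Jmjd2a peaks had a median of 258 bp (229 to 278) and covered 77.3 kb, although they were fewer. Jmjd2c-only peaks had a median of 177 bp (168 to 184). Because shared peaks also scored higher, widths were set side by side within score ranges. Width also enters the overlap rule, since a wider peak has more bases that a Jmjd2c peak can touch. Score ranges do not remove this, so the widths are a description only. Among peaks scoring 50 to 60 the median was 166 bp for members (161 to 181) and 208 bp for shared peaks (166 to 238). From 60 to 80 it was 211 and 235 bp, and from 80 to 100 it was 174 and 224 bp. At 100 and above it was 188 bp for the 24 members (146 to 284) and 345 bp for the 105 shared peaks (287 to 402). In each of these ranges the members had the lower median, with intervals that overlapped except in the highest. That range has no upper limit, and the median score in it was 114.73 for members and 155.74 for shared peaks. From 100 to 150 alone, the median widths were 176 bp for 21 members (131 to 272) and 282 bp for 50 shared peaks (186 to 359), and these intervals overlapped.

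Taken over all members, score and width went together only loosely. A single rho does not show that some repeated low scores, given below, rose as width fell. By width, the median score was 70.60 for 27 members under 100 bp and 57.59 for 163 from 100 to 200 bp. From 200 to 300 bp it was 64.28, and from 300 bp upwards 66.53. Across the 321 peaks, which share one library and are not replicates, Spearman's rho was 0.18. It was 0.43 across the 203 shared peaks and 0.48 across the 410 Jmjd2c-only peaks. Wide members could score near the lowest value. On chromosome 1 a member from 78570280 to 78571256 was 977 bp wide and scored 51.12. Another on chromosome 4 from 3009208 to 3010117 was 910 bp wide and scored 52.94, and one on chromosome 19 from 56922386 to 56922946 was 561 bp wide and scored 54.44. These 3, with the wide members on chromosomes 12 and 16 given above, were the 5 widest.

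The narrowest members took few different scores. Of the 27 members under 100 bp, 8.41% of all members, 20 had a score that another member shared to the second decimal. Here 4 members had 51.97, 4 had 70.60, 3 had 80.49, 4 had 90.72 and 3 had 101.27. The 3 with 101.27 lay on chromosomes 1, 5 and 10 and were 99, 61 and 63 bp wide, and all were alone within 10 kb. Over all widths 122 members (38%, 32.9 to 43.4) shared their score with another member, against 18 of 203 shared peaks (8.87%, 5.68 to 13.6) and 173 of 410 Jmjd2c-only peaks (42.2%, 37.5 to 47). The sets differ in size and in score, with 46.4% of members and 15.3% of shared peaks under 60. Repeated scores were not compared within score ranges. The most common value, 50.80, was held by 12 members on 10 chromosomes, all between 122 and 164 bp wide. The 4 members with 50.40, on chromosomes 7, 10, 14 and 17, were each 166 bp wide. Members with 51.62 were each 161 bp wide, those with 53.67 each 153 bp and those with 54.21 each 151 bp. Among 50.40, 51.62, 53.67 and 54.21, picked after they were seen, the narrower members scored higher. Members with 50.80 and 51.97 broke this order, at 122 to 164 bp and 89 to 100 bp. What sets a repeated score was not tested.

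**Figure D2:**
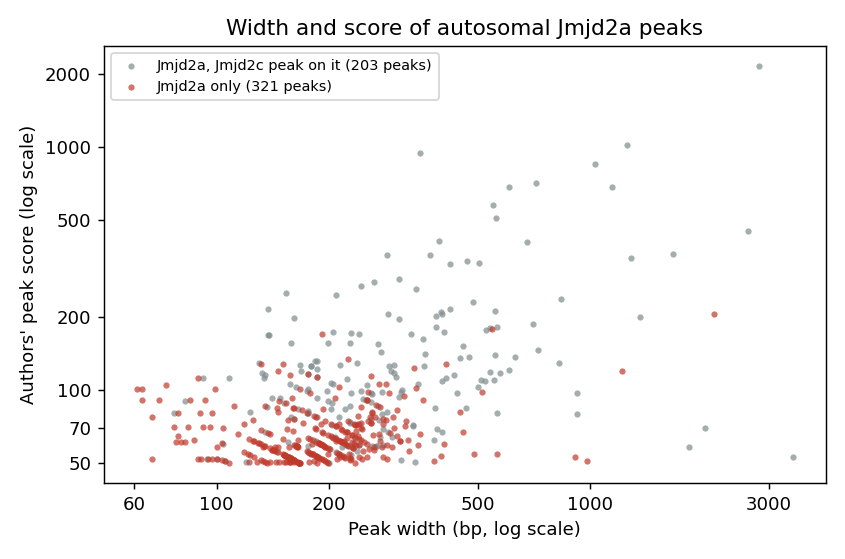
Width in bp (horizontal axis, log scale) and the authors' score (vertical axis, log scale) of the 321 Jmjd2a-only peaks (red) and the 203 shared Jmjd2a peaks (grey), each point 1 peak. Red points crowd under a score of 80, with rows of points at equal scores at the narrow end, and the red point farthest to the right is the chromosome 12 member of 2140 bp and 206.55.

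Members were either next to a Jmjd2c peak or far from one. The gap from a member to the nearest Jmjd2c peak ran from 19 bp to 14.6 Mb with a median of 1.16 Mb (0.795 to 1.42). Within 1 kb lay 43 members (13.4%, 10.1 to 17.6). Another 9 had their nearest Jmjd2c peak between 1 and 10 kb away and 16 between 10 and 100 kb. For 253 members (78.8%, 74 to 82.9) it was beyond 100 kb, and for 170 (53%, 47.5 to 58.4) beyond 1 Mb. The Jmjd2c-only peaks showed the same pair of modes, with 34 of 410 (8.29%, 5.99 to 11.4) within 1 kb of a Jmjd2a peak and 324 (79%, 74.8 to 82.7) beyond 100 kb. Between 10 and 100 kb they had 41 peaks (10%, 7.46 to 13.3), against the members' 16 (4.98%, 3.09 to 7.94). Of those 41, however, 19 lay in the dense stretches described below. Outside them the shares were close, 22 of 366 Jmjd2c-only peaks (6.01%, 4 to 8.93) and 16 of 307 members (5.21%, 3.23 to 8.3).

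**Figure D3:**
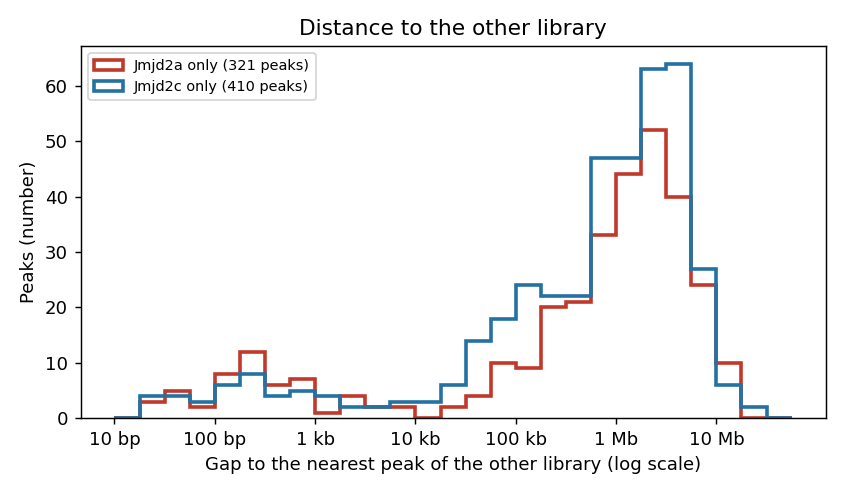
Number of peaks (vertical axis) by the gap to the nearest peak of the other library (horizontal axis, log scale) for the 321 Jmjd2a-only and the 410 Jmjd2c-only autosomal peaks. Each set has a small mode under 1 kb, with 43 and 34 peaks, and a large one around the medians of 1.16 and 1.09 Mb.

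The 43 members within 1 kb of a Jmjd2c peak were neither the weakest nor the narrowest. Their median score was 62.27 (58.33 to 74.80) and their median width 244 bp (188 to 263). The 278 others had medians of 60.54 and 182 bp (169 to 190). Of the 43, 12 lay in the dense stretches described below (27.9%, 16.7 to 42.7), 10 of them in the one on chromosome 7. The 11 members of that stretch had a median width of 264 bp. The widths were not compared without the dense stretches. The gap in these 43 had a median of 228 bp. The adjacent Jmjd2c peak was itself overlapped by a different Jmjd2a peak in 23 of 43 cases (53.5%, 38.9 to 67.5), and 26 of the 43 members had a shared Jmjd2a peak within 1 kb. In the other 20 cases the adjacent Jmjd2c peak had no Jmjd2a peak on it. Both libraries then had a peak at the site, side by side and without a common base.

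At the edge of the rule, members and shared peaks were separated by short distances. The member closest to a Jmjd2c peak was on chromosome 4 from 32443951 to 32444138. It scored 52.77, and the Jmjd2c peak 19 bp away scored 97.82. The next 4 were on chromosome 2 from 27352904 to 27353088, chromosome 7 from 71640299 to 71640639, chromosome 4 from 3009208 to 3010117 and chromosome 1 from 192123907 to 192124169. Their gaps were 20, 22, 32 and 34 bp. Just outside the rule, a Jmjd2a peak of chromosome 7 (71632011 to 71632283) shared 17 bp with a Jmjd2c peak and was therefore no member. It scored 64.08. A peak of chromosome 11 (18231670 to 18231930) also shared 17 bp and scored 58.68. The next smallest overlaps were 52, 63 and 66 bp, on chromosomes 7, 6 and 4, with scores of 63.93, 67.41 and 57.47.

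Taking 10 kb as a neighbourhood, 263 of the 321 members (81.9%, 77.4 to 85.8) were the only peak of either list in theirs. In 36 cases (11.2%, 8.21 to 15.1) the neighbourhood also held shared peaks, in 16 it held Jmjd2c-only peaks and no shared peak, and in 6 it held other members alone. The solitary members had a median score of 60.38 and a median width of 179 bp. Those among shared peaks had 65.48 (58.33 to 80.49) and 240 bp (184 to 258). Of the 24 members that scored 100 or more, 18 were solitary (75%, 55.1 to 88) and 6 lay within 1 kb of a Jmjd2c peak. The member farthest from any other peak was on chromosome 10 from 84806943 to 84807140. It scored 57.94, and the nearest peak of either list was 10.7 Mb away.

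Few members lay close to each other. Within 10 kb of another member were 33 (10.3%, 7.41 to 14.1), in 10 pairs, 1 group of 3 and 1 group of 10. Without the dense stretches described next, the share was 6.84% of 307 members. The 3 pairs with no other peak in their neighbourhood were on chromosomes 3, 15 and 19. The pair on chromosome 3 lay between 59849039 and 59849767, and its peaks, 165 bp apart, scored 62.30 and 64.50. The nearest Jmjd2c peak was 14.5 Mb away. On chromosome 15 the pair between 99000626 and 99001817 scored 73.23 and 69.06. On chromosome 19 the pair between 54270995 and 54271659 scored 61.69 and 53.10. None of these 6 peaks reached a score of 80.

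The group of 10 lay on chromosome 7 from 71616339 to 71640639, at the right end of a dense stretch of peaks that runs from 71228773 to 71640639. Its members scored, from left to right, 81.32, 98.07, 61.98, 59.37, 51.90, 57.31, 56.30, 58.33, 77.54 and 102.47. The highest values thus stood at both ends of the group and the lowest in its middle. All 10 had a Jmjd2c peak within 1 kb, at gaps of 22 to 780 bp, and 13 shared Jmjd2a peaks and 22 Jmjd2c peaks lay between the first and the last of them. The whole stretch held 26 Jmjd2a peaks, of which 11 were members, and 27 Jmjd2c peaks, of which 12 had no Jmjd2a peak on them. The eleventh member was at the other end, 382 kb from the nearest Jmjd2c peak.

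The group of 3 was on chromosome 9 from 115059459 to 115061370 and included the third highest member. Next to that peak of score 170.00, with 25 bp between them, lay a member from 115059675 to 115059796 that scored 50.80. Behind a pair of shared Jmjd2a peaks followed the third, from 115061271 to 115061370, at 58.55. The shared peaks inside scored 216.58 and 206.54. The members thus framed a region common to both lists, and only the first of them came near its scores. On chromosome 2, in a dense stretch from 27333045 to 27358218, 13 of 15 Jmjd2a peaks were shared and 2 were members. These lay from 27352327 to 27352416 and from 27352904 to 27353088 on either side of a shared peak. They scored 80.49 and 113.14, and the shared peak between them scored 143.61. The remaining dense autosomal stretch, on chromosome 5 from 14928447 to 15198919, held 30 Jmjd2c peaks and a single Jmjd2a peak. This was a member with a score of 56.04, 5278 bp from the nearest Jmjd2c peak. In all, dense stretches held 14 of the 321 members (4.36%, 2.62 to 7.19), 28 of 203 shared peaks (13.8%, 9.72 to 19.2) and 44 of 410 Jmjd2c-only peaks (10.7%, 8.09 to 14.1).

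**Figure D4:**
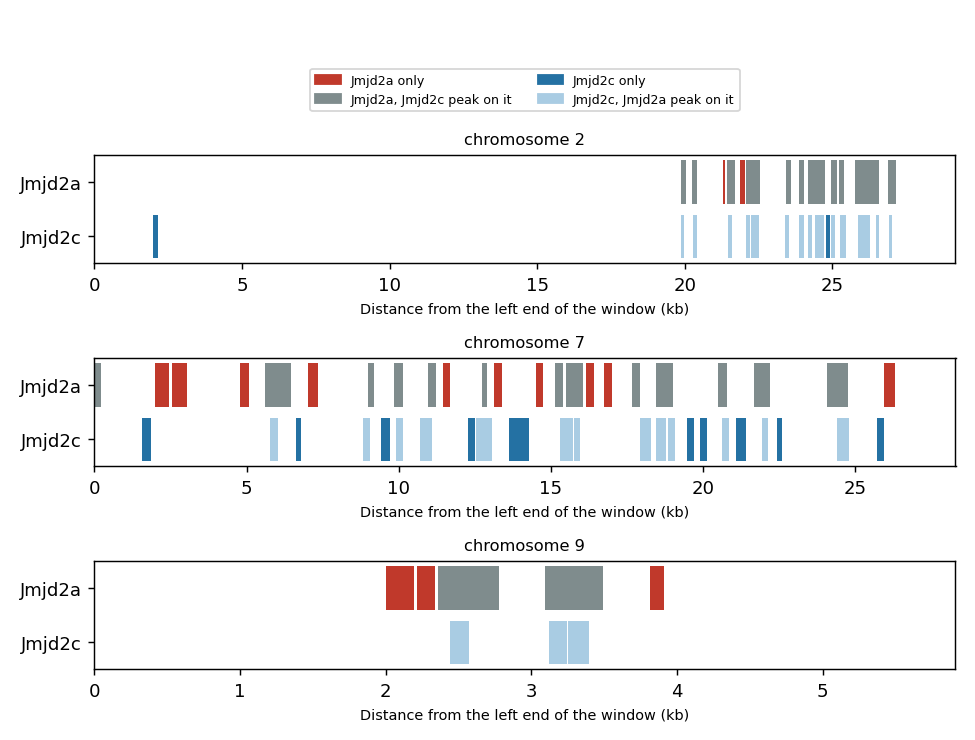
Maps of the dense stretch on chromosome 2, the group of 10 members on chromosome 7 and the group of 3 on chromosome 9, with the Jmjd2a peaks in the upper row and the Jmjd2c peaks in the lower row of each map (horizontal axis, distance in kb from the left end of the window, which starts 2 kb before the stretch or group). The 2, 10 and 3 red boxes are the Jmjd2a-only peaks, which lie between and beside shared peaks in each of the 3 maps.

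Every autosome held members, from 8 on chromosome 19 to 27 on chromosome 7, followed by 25 on chromosome 5, 24 on chromosome 9 and 22 on chromosome 1. Members were 56.2%, 61%, 75% and 53.7% of the Jmjd2a peaks on chromosomes 7, 5, 9 and 1, against 61.3% over all autosomes. The counts were not set against chromosome length. On chromosome 7 the 16 members outside the dense stretch were fewer than those of chromosome 5, where 24 lay outside. The share of Jmjd2a peaks that were members was lowest on chromosome 18, 12 of 26 (46.2%, 28.8 to 64.5), and on chromosome 2, 19 of 39 (48.7%, 33.9 to 63.8). It was high on chromosome 12, 14 of 16 (87.5%, 64 to 96.5), and complete on chromosome 19. The intervals of chromosomes 2 and 18 lay below that of chromosome 19. Chromosome 2 also lay just below chromosome 12, and chromosomes 18 and 12 met by a narrow margin. The extremes of 19 chromosomes were picked after the values were seen, and the differences were not tested. Chromosome 19 was the one autosome where the lists met nowhere. Its 8 Jmjd2a peaks and 16 Jmjd2c peaks shared no base, and the interval of the share of members ran from 67.6 to 100. Members there were weak, with a median of 53.95 and none above 61.69, and the nearest Jmjd2c peak to any of them was 44888 bp away. Chromosome 12 had the highest median among the autosomes, 71.28 over its 14 members, and the highest single score. Chromosome 18 had none above 78.33.

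**Figure D5:**
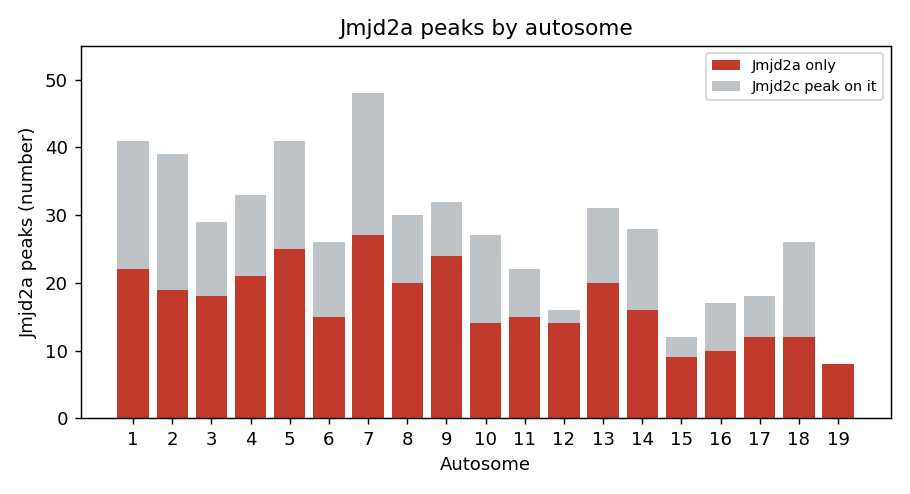
Number of Jmjd2a peaks (vertical axis) on each autosome (horizontal axis), split into peaks without a Jmjd2c peak (red) and peaks with one (grey). Red bars run from 8 on chromosome 19, where no grey part stands above, to 27 on chromosome 7.

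Some members lay near the low-coordinate end of the chromosomes, where mouse centromeres lie. Within the first 5 Mb of an autosome were 8 of 321 members, 8 of 203 shared peaks and 12 of 410 Jmjd2c-only peaks. The share of mappable sequence in that window was not computed, so these counts show neither an excess nor a lack. Of these 8 members 3 had a Jmjd2c peak within 10 kb, and the other 5, the leading member on chromosome 12 among them, had none within 200 kb. The 3 include the wide members on chromosomes 4 and 16. The third, on chromosome 11 from 3002665 to 3003063, scored 53.73 and lay 1030 bp from a Jmjd2c peak that was 775 bp wide. It and the other regions named by position in the paragraphs on repeated scores, pairs and chromosomes were picked after their values were seen.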

How the data were processed

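The files hold 1 peak list each for the Jmjd2a and the Jmjd2c library. No list of the IgG library, which its title calls an input, was used. The submitters' processing notes name FastQC, Bowtie 0.12.7 and genome build mm9. Peak names start with MACS, but how that peak caller was run, and against which control, is not given in the sources used here. Each deposited line gives a position, a name and a score. This deposited score, made by the authors on a scale that no header names, runs from 50.01 to a ceiling of 3100. The depth is unknown. The source names of the libraries read B220+, B221+ and B222+, while the cell type reads B220+ in all.

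Overlaps and gaps were computed in pandas 2.3.3 and numpy 2.4.6 under Python 3.11.15, and intervals in scipy 1.17.1, after the overlap and distance functions were tested on simulated peaks. Sharing meant 1 bp in common. Gaps are edge to edge. A dense stretch holds at least 20 peaks of both lists with gaps of at most 500 kb. Intervals are 95% Wilson intervals for shares and binomial order-statistic intervals for medians, and treat peaks as independent, which neighbouring peaks are not. Regions named were the 10 highest and the 5 widest members, the 5 on each side of the overlap rule, groups of 3 or more, and the most isolated member. The members, lists and settings were chosen with earlier results of these data known. Gene lists, transcription starts, base composition and motifs were planned but not run, since the reference tables are of GRCm38.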

Additional observations from a re-analysis of the deposited data

How the results depend on the processing

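Of 43 alternative values for 9 results, 24 stayed within 1.5 times the count or within the interval of the main value, and 19 moved. One of the 19, chosen after seeing the data, is the share of Jmjd2c-only peaks with a Jmjd2a peak at 10 to 100 kb, which went from 10% to 6.01% without dense stretches. The member count of 321 ranged from 278 to 383, except that Jmjd2a peaks at or above the median score gave 104. That setting raises the median score, from 60.68 to 81.47, by its construction. The percentage without a partner went from 61.3 to 39.7. The same setting gave a median width of 198 bp, 21.2% with a Jmjd2c peak within 10 kb, and 10 members on the leading chromosome. The percentage without a partner was 68.9 with 50% reciprocal overlap, 53.1 when Jmjd2c peaks within 1 kb counted as partners, 65.8 with peaks closer than 1 kb merged, and 73.1 when only Jmjd2c peaks at or above their median score counted. Members with a Jmjd2c peak within 10 kb went from 16.2% to 25.5% with reciprocal overlap, 3.24% without those within 1 kb, 7.64% after merging, and 21.2% at a distance of 100 kb. Members with another member within 10 kb went from 10.3% to 17.2%, 2.88% and 0 under the first 3 of these, and to 6.84% without dense stretches. Several directions were fixed by the settings. Reciprocal overlap and the limit on Jmjd2c scores can only raise the percentage without a partner. Counting peaks within 1 kb as partners can only lower it. Reciprocal overlap adds only members that overlap a Jmjd2c peak, and the 1 kb setting drops only members close to one. A longer distance can only raise a share. The chromosome with most members was 7 in the main setting and with reciprocal overlap, and 5 in the other 4 settings. No paired analysis was possible because there is a single library for every antibody, which also leaves no replicate to drop. Results that need transcription starts or sequence were not run.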
